A study of Morella rubra with 12 samples.

Results

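A group of 81 genes, out of 119701 in the deposited tables, was at least 2-fold more abundant in ripe red bayberries than in ripe pale ones and did not decline by 2-fold between 70 and 85 days after flowering in the pale fruits. These genes were chosen by their FPKM values (fragments scaled to gene length and to the fragments sequenced in a library), so their difference between the ripe fruits is described here and not tested. For each gene, 1 was added to its mean FPKM in Dongkui (DK) fruits at 85 days after flowering and in Baidongkui (BDK) fruits at 70 and at 85 days. A member had to reach 6 on this scale in DK, to be at least 2-fold higher in DK than in BDK at 85 days, and to have its lowest DK library above its highest BDK library at 85 days. The BDK value at 70 days had to be below 2 times that at 85 days. The first 3 conditions held for 172 genes, and the last one set aside 91 of them, which were lower by at least 2-fold at 85 days than at 70 days in BDK.

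The fruits came from Chinese bayberry (Morella rubra), a subtropical tree with juicy stone fruits. DK is a red-fruited cultivar, whose fruits carry the colour label black, and it was sampled at 85 days only. BDK is a strain with pink-white fruits, colour label pink, and was sampled at 55, 70 and 85 days (stages 1, 2 and 3). Each of the 4 groups holds 3 RNA sequencing libraries made from frozen fruits, and the labels do not say whether they came from separate trees or fruits, so p-values measure only the spread between these libraries, which may be technical.

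The red of ripe bayberries comes from anthocyanins, pigments built from phenylalanine through the flavonoid pathway and stored in the vacuole. In many fruits, MYB transcription factors acting with bHLH and WD40 proteins switch on the genes of this pathway as the fruit ripens, while acids decline, sugars accumulate and cell walls soften. The files list genes by identifier, with no name or function, so whether any of the 81 genes takes part in these processes was not analysed here. In whole fruits, a change in the share of a cell type cannot be told apart from a change in transcript level per cell.

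The summed FPKM of a library ran from 817744 to 1219280 and the number of genes above 0 from 32084 to 48737, and no read counts were given, so the depth is unknown. By the genes listed at 0, the libraries also divide into 2 sets of 6 that cross the groups. The counts that follow describe this division and are no test of it, and what the sets stand for was not tested. A total of 876 genes were above 0 in every library of the first set (BDK at 55 days, BDK at 70 days replicate 1, BDK at 85 days replicates 1 and 2) and at 0 in every library of the second set, which includes all DK libraries. The reverse held for 120 genes. Of the 81 genes, 0 followed the first pattern and 2 the second.

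The 81 genes together held 1.13% ± 0.069 of the summed FPKM in DK fruits, against 0.230% ± 0.0079, 0.272% ± 0.022 and 0.310% ± 0.064 in BDK fruits at 55, 70 and 85 days (SD, n = 3). Without the 2 genes most abundant in DK, the mean shares were 0.751% in DK and 0.221%, 0.265% and 0.263% at the 3 BDK stages. The choice set DK above ripe BDK, so the direction of that gap was fixed. The median gene had a mean of 20.3 FPKM in DK and of 5.85, 6.24 and 6.13 FPKM at the 3 BDK stages. The DK mean was at least 100 FPKM for 13 genes, between 20 and 100 FPKM for 28 and under 20 FPKM for 40. The ratio of DK to BDK at 85 days, on means of FPKM + 1, had a median of 2.52 and ran from 2.02 to 13.5. It was at least 3 for 31 genes and at least 5 for 13. The 13 include all 5 genes whose highest DK library was at least 4 times the lowest, on FPKM + 1. They also include the 2 genes at 0 in all BDK libraries, whose ratio rests on the added constant.

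The gene nearest inside the 2-fold limit, c47628_g1, had a ratio of 2.02, with 168, 199 and 173 FPKM in the DK libraries against 84.3, 91.9 and 89.8 FPKM in those of BDK at 85 days. The nearest outside, c51766_g1, had a ratio of 1.997, with 96.0, 86.1 and 77.0 FPKM in DK against 40.1, 42.3 and 45.9 FPKM in BDK. For the limit on late decline, the ratio of BDK at 70 days to BDK at 85 days was 1.99 for c52955_g1, the nearest inside, and 2.003 for c52363_g1, the nearest outside. The cut runs through a continuous range: 27 of the 81 genes had a ratio of 1.5 or more, 50 a ratio above 1 and 31 a ratio of at most 1.

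**Figure D1:**
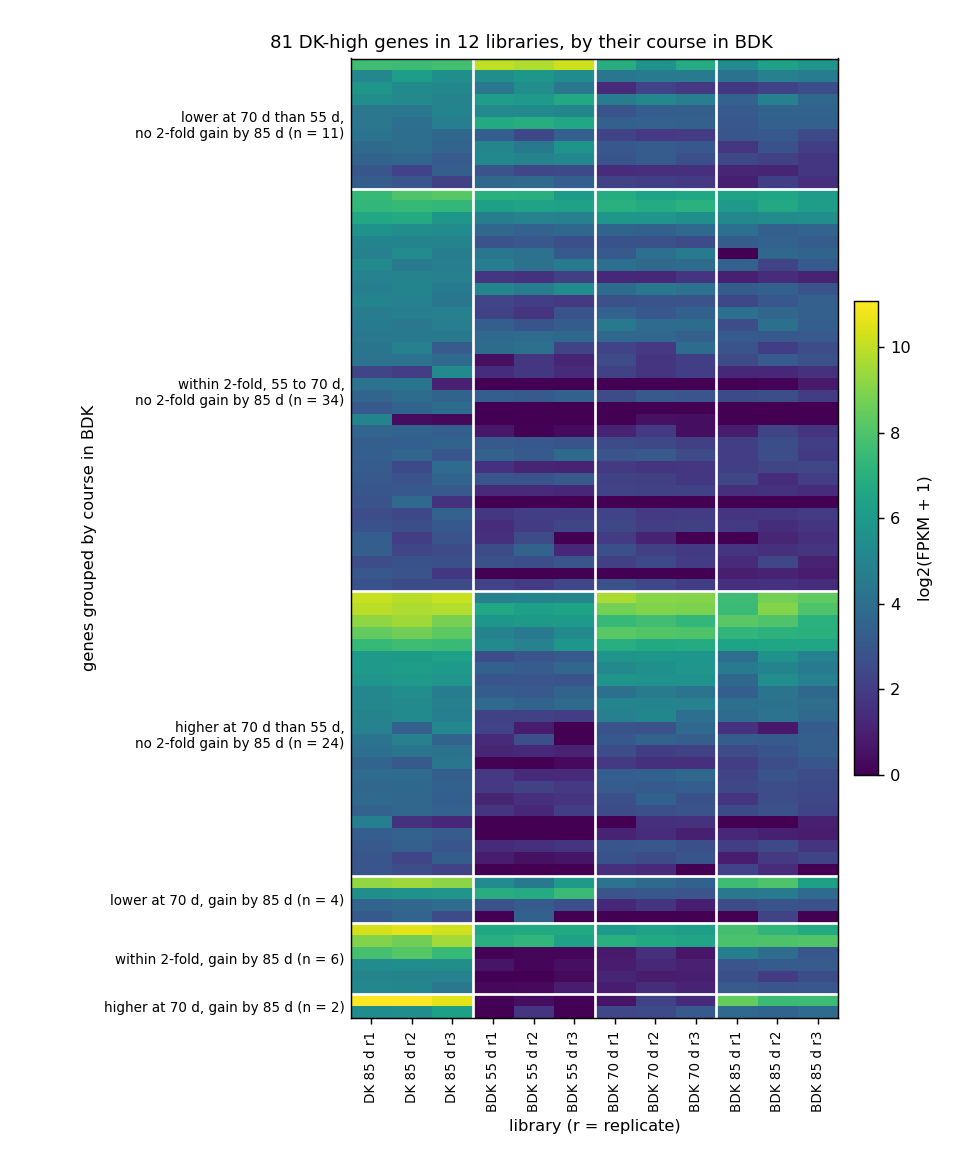
Level of each of the 81 genes (rows) in each of the 12 libraries (columns), as log2(FPKM + 1) from dark purple (0) to yellow, with rows grouped by the course in BDK and ordered within a group by the DK mean. The 3 DK columns on the left are brighter than the 3 columns of BDK at 85 days on the right in every row, as the choice requires, while BDK at 55 days runs from dark rows to rows brighter than DK.

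Before ripeness the genes differed widely in BDK. Sorted by 2-fold changes in mean FPKM + 1, 12 genes were higher at 85 than at 70 days in BDK, and the other 69 stayed within 2-fold in that step. Of the 69, 24 were higher at 70 than at 55 days, 34 were within 2-fold and 11 were lower. Of the 12, 2 were higher at 70 than at 55 days, 6 were within 2-fold and 4 were lower. The level at 55 days entered neither the choice nor its limits. It was at least 2-fold above BDK at 85 days for 18 genes, at least 2-fold below for 27 and in between for 36. Of all tested genes 24.2% were at least 2-fold above and 10.7% at least 2-fold below. The level at 85 days, under these ratios, took part in the choice, so nothing is read from the shares.

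The 12 genes that gained in BDK between 70 and 85 days include the most abundant of the group in DK. Gene c47647_g1 had 2140.3, 2118 and 1577 FPKM in the DK libraries. In BDK it had 0.07, 0.32 and 0.08 FPKM at 55 days, 0.54, 3.47 and 1.47 at 70 days, and 352, 183 and 189.6 at 85 days. It was thus below 4 FPKM in the 6 younger BDK libraries, and the lowest ripe DK library held more than 4 times the FPKM of the highest ripe BDK library. Gene c39109_g1, with the largest ratio of the group (13.5), followed the same course at a lower level. It had 224, 284 and 171 FPKM in DK, and in BDK 0.07, 0.14 and 0.11 at 55 days, 0.74, 1.88 and 0.58 at 70 days, and 26.2, 14.4 and 7.10 at 85 days. The choice required that no library overlapped between ripe DK and ripe BDK. For c39109_g1 the highest over the lowest library was larger in BDK at 85 days than in DK. The SD in FPKM was larger in DK (56.1 against 9.63 FPKM).

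Another 3 of the 12 genes had this late course, with means below 2 FPKM at both 55 and 70 days and no more than 8 FPKM at 85 days in BDK. Gene c50154_g1 averaged 30.1 ± 1.48 FPKM in DK, against 0.070 ± 0.12, 0.97 ± 0.22 and 4.55 ± 1.40 FPKM in BDK at 55, 70 and 85 days (SD, n = 3). Gene c49961_g4 averaged 41.9 ± 1.61 FPKM in DK and 0.37 ± 0.20, 1.09 ± 0.28 and 7.58 ± 0.96 FPKM at the 3 BDK stages. Gene c40184_g1 averaged 29.0 ± 7.76 FPKM in DK and 0.40 ± 0.36, 1.20 ± 0.44 and 7.17 ± 0.80 FPKM at the 3 BDK stages. In each of these 5 genes the order of the group means was the same, with DK highest, then BDK at 85, 70 and 55 days. The choice set DK above BDK at 85 days, and the sorting into the 12 set 85 above 70 days. Only the order of 70 and 55 days was left free, and there both means were below 2 FPKM.

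Other genes with a late gain in BDK had a higher level at 55 days. Gene c51160_g1 had 1308, 1574 and 1234 FPKM in DK, and in BDK 96.6, 105 and 105 at 55 days, 63.1, 78.7 and 70.1 at 70 days, and 222, 152 and 107 at 85 days. Every DK library thus held more than 5 times the FPKM of the highest BDK library, while the lowest BDK library at 85 days, at 107 FPKM, lay just above the highest at 55 days. Gene c56009_g7 had 609, 694 and 563 FPKM in DK, and in BDK 38.9, 21.5 and 61.0 at 55 days, 17.5, 12.7 and 9.87 at 70 days, and 197, 258 and 78.3 at 85 days. Gene c54275_g1 was at 505, 404 and 745 FPKM in DK and at 238, 250.2 and 268 FPKM in BDK at 85 days, with 79.9 to 154 FPKM in the 6 younger BDK libraries.

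**Figure D2:**
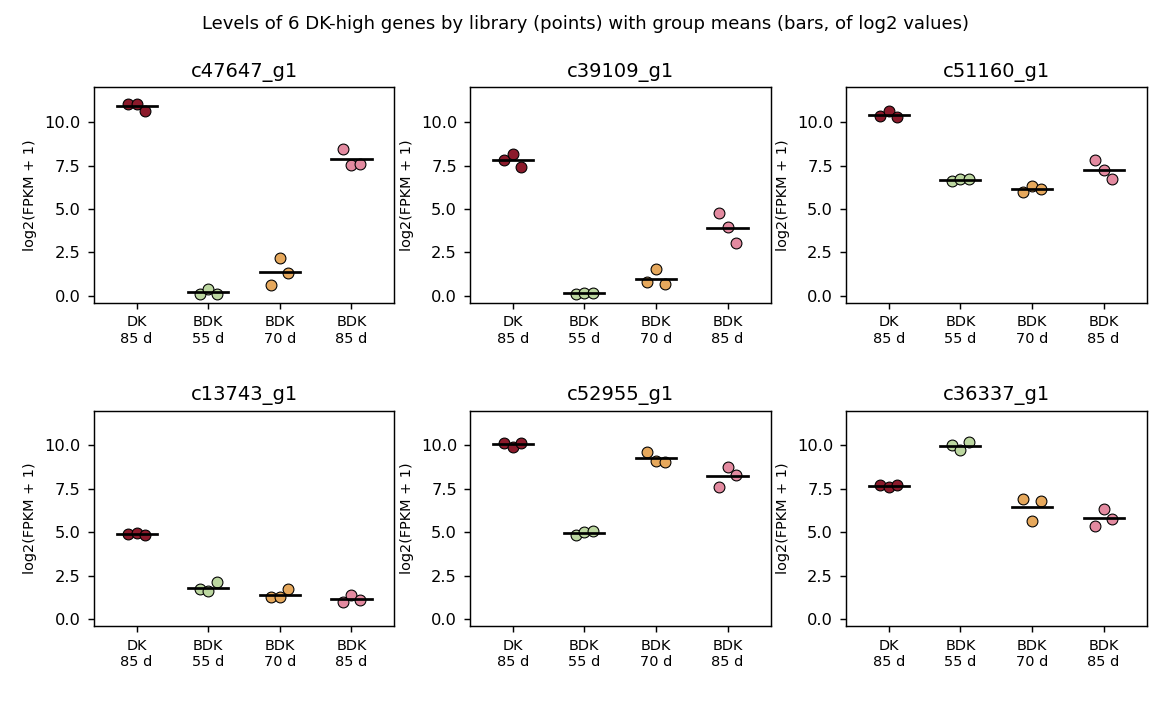
Levels of 6 of the genes as log2(FPKM + 1), 1 point per library, in DK at 85 days and in BDK at 55, 70 and 85 days, with bars at the means of the 3 log2 values. c47647_g1 and c39109_g1 are low in BDK at 55 and 70 days and higher at 85 days, c13743_g1 is low at all BDK stages, c52955_g1 is lowest at 55 days and c36337_g1 is highest at 55 days, above DK.

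Of the 34 genes that stayed within 2-fold in both BDK steps, 21 had every DK library above all 9 BDK libraries. Of all tested genes 2.49% had that order, and the choice had already set DK above ripe BDK. Gene c13743_g1 had 29.0, 29.9 and 27.3 FPKM in DK and 0.95, 1.61 and 1.13 FPKM in BDK at 85 days. At 55 days it was at 2.32, 2.02 and 3.34 FPKM and at 70 days at 1.38, 1.37 and 2.27 FPKM. The 9 BDK libraries of this gene thus lay below 4 FPKM and the 3 DK libraries above 27. Gene c57204_g3 averaged 43.7 ± 4.39 FPKM in DK and 11.4 ± 1.04, 11.1 ± 1.38 and 11.9 ± 3.02 FPKM in BDK at 55, 70 and 85 days (SD, n = 3). Gene c44845_g1 averaged 30.6 ± 0.30 FPKM in DK and 6.21 ± 0.83, 5.52 ± 0.49 and 9.0 ± 1.02 FPKM at the 3 BDK stages.

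Only 2 of the genes were listed at 0 in all 9 BDK libraries, both from this same group of 34. Gene c13092_g1 had 7.49, 10.9 and 13.9 FPKM in DK, and c94685_g1 had 6.17, 12.95 and 2.08 FPKM. No fold can be given against a group listed at 0. With a limit of 1 FPKM in place of 0, 4 genes were below it in all 9 BDK libraries, the other two being c42473_g1 and c55052_g1 (named after their values were seen). Gene c42473_g1 had 17.4, 18.5 and 1.03 FPKM in DK and at most 0.74 FPKM in BDK.

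The step from 55 to 70 days in BDK is only partly free of the choice. The 55-day libraries took no part in it, but the 70-day libraries did, through the limit on their ratio to 85 days. A linear model with moderated variances (limma) on log2(FPKM + 1) after trimmed-mean scaling was fitted to all 12 libraries and 23074 genes, and a Benjamini-Hochberg adjusted p below 0.05 over all of them counts as called. It included 80 of the 81 genes. c55052_g1 missed the filter of 1 FPKM in at least 3 libraries, 6 others passed it only with the help of DK, and 4 of these, such as c13092_g1, were at 0 in all BDK libraries at 55 and 70 days. At 70 days 34 genes were higher than at 55 days, 42.5% of the 80, where 23.0% of all tested genes were called higher. Another 17 were lower, 21.3% of the 80 beside 28.1% of all tested genes, and 29 were not called. The median log2 change was 0.39 over the 80 genes and -0.07 over all tested genes. These shares and medians are descriptions of a chosen list. Counted over the 66 genes with 1 FPKM or more in at least 3 of the 6 libraries at 55 and 70 days, 29 were higher (43.9%, beside 26.1% of all such genes) and 17 lower (25.8%, beside 32.5%). Their median log2 change was 0.17, beside -0.12 over all such genes. Within the first library set, which leaves a lone library at 70 days whose spread is taken from the other groups, 18 of 67 tested genes were called higher and 11 lower, where 14.2% and 18.4% of all genes in that fit were. The second set holds no 55-day library.

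Of the 34 genes called higher, 25 changed at least 2-fold on the log2(FPKM + 1) scale, which understates changes of low genes. The largest rise was that of c52955_g1, with 796, 555 and 519 FPKM at 70 days against 27.5, 31.0 and 32.1 FPKM at 55 days. Its log2 change was 4.35 ± 0.24 (SE, limma adjusted p = 2.85e-07). In ripe fruits it had 1119, 946 and 1133 FPKM in DK and 194, 424 and 318 in BDK. The next was c56800_g1, with 302, 269.8 and 259 FPKM at 70 days against 29.8, 22.6 and 37.5 FPKM at 55 days, a log2 change of 3.24 ± 0.17 (SE, limma adjusted p = 1.90e-07). At 85 days its DK libraries held 336, 399 and 309.6 FPKM and its BDK libraries 157, 138 and 128 FPKM, so that DK lay above and ripe BDK below the 70-day level. Gene c44238_g1 rose to 432, 493 and 467 FPKM at 70 days, against 96.3, 75.3 and 84.0 FPKM at 55 days (log2 change 2.49 ± 0.28, SE, limma adjusted p = 3.50e-05). In ripe fruits it had 967, 822 and 892 FPKM in DK, against 187, 514 and 258 FPKM in BDK.

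The 2 genes with the largest ratio and the 2 with the highest DK level had smaller log2(FPKM + 1) changes in this step, which for c47647_g1 and c39109_g1 depended on the constant. With 0.1 in place of 1, their log2 changes were 2.71 and 2.34 (limma adjusted p = 0.0023 and 0.0021). c47647_g1 was called higher, with a log2 change of 1.14 ± 0.36 (SE, limma adjusted p = 0.022). Over its 21 other settings the limma adjusted p ran from 0.0023 to 0.23, and the call was lost in 6. These were no filter, a pseudocount of 5, the library set as a term (limma adjusted p = 0.082, 0.23 and 0.14), and the fits without BDK at 55 days replicate 1 or 3 and without BDK at 70 days replicate 2 (adjusted p = 0.061, 0.055 and 0.073, limma). c39109_g1 had a log2 change of 0.83 ± 0.38 (SE) and was not called (limma adjusted p = 0.098, and 0.0021 to 0.53 over its other settings). c51160_g1, at -0.48 ± 0.22 (SE), and c13743_g1, at -0.37 ± 0.18 (SE), were not called either, with limma adjusted p of 0.091 and 0.10, and had 3 and 1 other settings below 0.05.

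**Figure D3:**
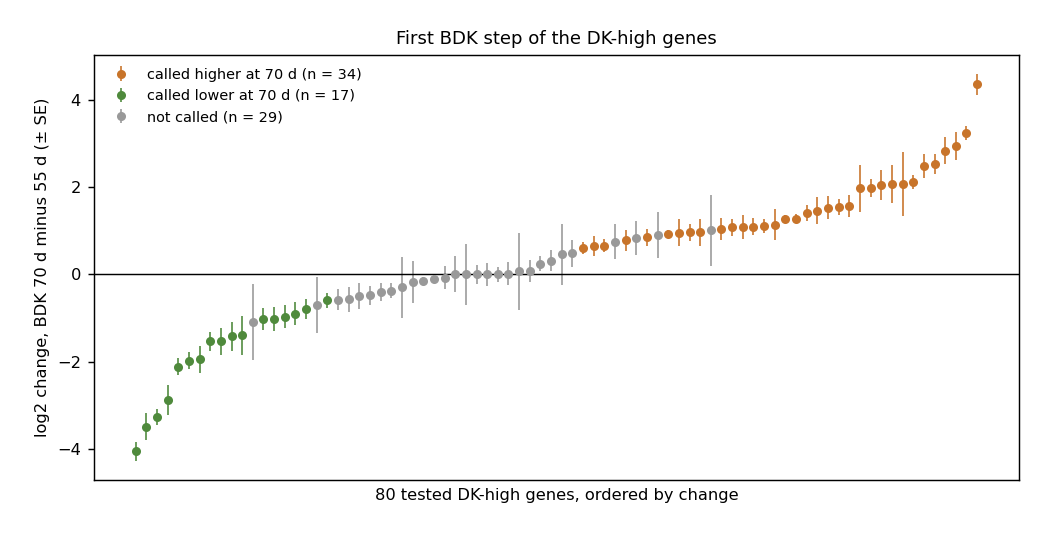
Fitted log2 change between BDK at 70 and at 55 days (70 minus 55, limma) of the 80 tested genes in order of change, with bars of 1 SE. The 34 genes called higher reach 4.35 at the right end and the 17 called lower reach -4.05 at the left, with 29 genes not called between and among them.

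The 17 genes that fell between 55 and 70 days include those with the highest 55-day levels. Gene c36337_g1 had 117, 49.8 and 111 FPKM at 70 days, against 1037, 858 and 1180 FPKM at 55 days. Its log2 change was -3.49 ± 0.31 (SE, limma adjusted p = 7.47e-06). In ripe fruits it was at 206, 192 and 211 FPKM in DK and at 39.7, 79.2 and 53.6 FPKM in BDK, so every DK library lay above BDK at 70 and 85 days and far below BDK at 55 days. Gene c56169_g2 fell to 6.59, 7.34 and 6.64 FPKM at 70 days, against 117, 111 and 187 FPKM at 55 days (log2 change -4.05 ± 0.22, SE, limma adjusted p = 2.71e-07). It had 44.6, 49.9 and 53.9 FPKM in ripe DK and 20.7, 23.0 and 13.6 FPKM in ripe BDK, which in BDK is a partial return after the low at 70 days. Gene c43944_g1 fell to 9.81, 10.1 and 9.79 FPKM, against 108, 119 and 95.9 FPKM at 55 days (log2 change -3.26 ± 0.18, SE, limma adjusted p = 3.14e-07). Its DK libraries held 19.9, 15.4 and 25.7 FPKM and its ripe BDK libraries 7.0, 9.86 and 9.86 FPKM. Gene c48789_g2 differed from these in that ripe DK, at 56.2, 37.6 and 33.6 FPKM, overlapped its 55-day level of 20.3, 42.1 and 19.97 FPKM. In BDK it was at 1.53, 3.65 and 2.54 FPKM at 70 days and 2.45, 3.61 and 5.40 FPKM at 85 days.

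Ripe DK was therefore not always the highest level measured. Every DK library lay above all 9 BDK libraries for 47 of the 81 genes, and 2.49% of all tested genes had that order. The choice had already placed DK above ripe BDK, so this share is no result of its own. Against 55 days alone, every DK library was above every BDK library for 61 of the 81 genes, 22.0% being the share over all tested genes. Since DK was chosen to be high, nothing is read from this count either. Every DK library was below every 55-day library for 8 genes, beside 41.8% of all tested genes, and the groups overlapped for 12. All 34 genes that were higher at 70 than at 55 days were also above the 55-day range in every DK library. The choice puts the DK mean of each gene above its BDK mean at 70 days, so this count was largely fixed. Of the 17 that were lower, 8 were below the 55-day range in every DK library and 4 above.

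The other 91 genes that were higher in ripe DK, those with a late decline in BDK, are set beside them as a description. Their BDK level at 55 days was at least 2-fold above that at 85 days for 58 of 91 genes and at least 2-fold below for 6, with a median ratio of 3.10, where the 81 genes had 18, 27 and 0.78 and all tested genes a median of 1.20. DK lay above the 55-day range in every library for 38 of the 91 and below it for 40. For the step from 55 to 70 days, 22 of the 91 were called higher and 23 lower, 24.2% and 25.3%, beside 23.0% and 28.1% of all tested genes. The 2 lists were divided by a ratio to BDK at 85 days, which also stands under these ratios, and the difference between the lists was not tested.

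The spread between the 3 DK libraries differed among the genes. The choice required the lowest DK library to lie above ripe BDK, which favours a small spread. The spread over all genes was not counted, so nothing is read from the counts that follow. The highest DK library was less than 1.5 times the lowest for 44 of the 81 genes, on FPKM + 1, and at least 2 times for 18. For 5 genes it was at least 4 times, and here 1 or 2 libraries made the DK mean. Gene c55052_g1 had 31.1, 0.28 and 0.18 FPKM in DK, and c49225_g1 had 26.4, 2.08 and 1.37. Gene c57123_g3 had 3.94, 3.06 and 38.2 FPKM, and c42473_g1 and c94685_g1, given above, were low in replicate 3. Replicate 1 thus held the high value of c55052_g1 and c49225_g1. These are also the 2 genes that were above 0 in every library of the second set and at 0 in every library of the first. The part of the library set in their difference was not tested.

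In BDK at 85 days the highest library was less than 1.5 times the lowest for 32 of the 81 genes and at least 2 times for 21. The median of this spread was 1.40 in DK and 1.58 in BDK at 85 days, and it was larger in BDK for 51 genes. The DK libraries lie in 1 library set and those of BDK at 85 days in both, and their levels differ. What the difference in spread stands for was not tested. The replicate orders given next were not counted over all genes, so nothing about the 81 genes is read from them. Replicate 3 was the lowest of the DK libraries for 46 of the 81 genes. In BDK at 85 days replicate 2 was the highest of the 3 for 42 of the 81 genes, replicate 1 for 20 and replicate 3 for 19. For c44238_g1 and c52955_g1, given above, replicate 2 was highest and replicate 1 lowest. The lowest DK library was at least 2 times the highest of these BDK libraries, on FPKM + 1, for 23 genes, at least 1.5 times for 51 and under 1.1 times for 5. Set against BDK replicate 3 alone, the BDK library at 85 days of the same set as DK, the DK mean was at least 2-fold higher for 71 of the 81 genes, with a median ratio of 2.73. Against the mean of replicates 1 and 2 it was so for 70, with a median of 2.54. The choice required a ratio of 2 to the mean of these 3 BDK libraries and so largely fixes both counts.

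Repeating the choice without each of the 9 libraries it used kept 37 of the 81 genes every time, 20 of them with a ratio of at least 3. The other 44 were lost at least 1 time. Leaving out a BDK library at 85 days lost 31 genes, leaving out a DK library 30 and leaving out a BDK library at 70 days 8. Of the 44 genes, 36 failed the conditions on DK in at least 1 repeat and 17 passed to the late-declining genes. Genes lost at least 1 time include c52955_g1, whose ratio of 70 to 85 days lies next to the limit. Genes kept each time include c47647_g1, c39109_g1, c51160_g1, c13743_g1, c36337_g1 and c56169_g2. In the all-gene model 64 of the 80 tested genes were called higher in DK than in BDK at 85 days, where 3.53% of all tested genes were. This is the contrast that chose them, and nothing is read from the count. It was 37 with the library set as a term and 39 without DK replicate 1.

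**Figure D4:**
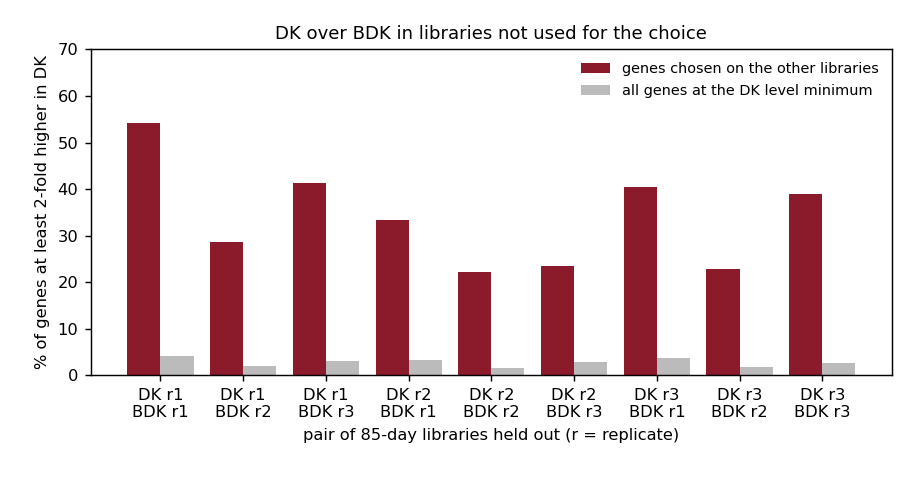
Share of genes at least 2-fold higher in a DK than in a BDK library at 85 days (FPKM + 1), in the pair of libraries left out of the choice, for each of the 9 pairs. Dark red bars are genes that meet the rule in the remaining libraries, from 22.1% to 54.2%, and grey bars are all genes at the same DK level minimum, from 1.60% to 4.24%.

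The same measure in libraries not used for the choice was read by holding out 1 DK and 1 BDK library at 85 days. The rule on the remaining libraries chose 120 to 213 genes over the 9 pairs, 56 to 62 of them among the 81. In the held-out pair, a median of 33.3% of the chosen genes was at least 2-fold higher in DK (range 22.1% to 54.2%), against a median of 2.97% (1.60% to 4.24%) of all genes whose 2 kept DK libraries averaged 5 FPKM or more. The highest share came with replicate 1 of DK and of BDK held out and the lowest with replicate 2 of each. Between 22.0% and 43.5% of the chosen genes were listed at 0 in the held-out DK library, as were 15.6% to 22.6% of all genes of that level. The 9 pairs share libraries and are not independent.

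Genes whose identifiers are the same up to _g are taken here as 1 cluster of an assembly, and such genes can share reads. The 81 genes lie in 77 clusters, and 4 clusters hold 2 of them each. Both genes of a pair met the same rule, so part of any likeness between them was fixed by the choice. The genes c43564_g1 and c43564_g2 averaged 55.7 ± 4.13 and 67.2 ± 6.06 FPKM in DK. In BDK they averaged 6.50 ± 0.40 and 6.53 ± 1.30 FPKM at 55 days, 50.9 ± 1.63 and 54.7 ± 2.39 at 70 days, and 27.0 ± 14.9 and 30.7 ± 17.7 at 85 days (SD, n = 3). In both, BDK at 85 days replicate 2 was highest, at 41.6 and 49.6 FPKM, and replicate 1 lowest, at 11.9 and 14.5 FPKM. The pair c43170_g1 and c43170_g2 averaged 16.6 and 15.5 FPKM in DK and 6.80 and 6.16 FPKM in BDK at 85 days. The pair c56960_g1 and c56960_g2 averaged 32.5 and 7.85 FPKM in DK and 15.5 and 3.27 FPKM in BDK at 85 days. In each of these pairs the BDK means of both genes had the same order over the stages. The first BDK step was 2.15-fold for c43170_g1 and 1.88-fold for c43170_g2, on either side of the 2-fold limit. The fourth pair is c47647_g1 and c47647_g2. Here c47647_g2 averaged 5.24 FPKM in DK and 0.95 FPKM in BDK at 85 days and was at 0 in all 6 younger BDK libraries. On FPKM + 1 it stayed within 2-fold in both BDK steps, where c47647_g1 rose at least 2-fold in both. The last BDK step of c47647_g2, 1.95-fold on this scale, started from 0 FPKM. Its place within 2-fold thus rests on the added constant and shows no different course. How reads were shared within the pairs was not tested, so these 8 genes may stand for fewer loci.

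Another gene of the same cluster with at least 1 FPKM in ripe DK or ripe BDK accompanied 33 of the 81 genes, 40.7% beside 32.4% of the other genes at the same DK level. Summed over the cluster, the DK to BDK ratio at 85 days stayed at 2 or above for 19 of the 33, lay between 1.5 and 2 for 5 and below 1.5 for 9, with a median of 2.09 where the genes' own median was 2.31. FPKM of genes of different length do not add up to an exact cluster level, and an abundant neighbour dominates the sum. Gene c53866_g2, for example, had 40.1, 42.3 and 75.9 FPKM in DK against 12.7, 10.98 and 13.8 FPKM in ripe BDK, while its neighbour c53866_g1 averaged 2076 ± 703 FPKM in DK and 2517 ± 1375 FPKM in ripe BDK, so that the sum had a ratio of 0.84. Cluster neighbours at least 2-fold lower in DK were counted only if they averaged at least 5 FPKM in ripe BDK. This left out lower ones such as c56940_g3, at 0 FPKM in DK and a mean of 3.28 FPKM in ripe BDK. Only 1 of the 81 genes, c56965_g5, had a neighbour so counted (1.23%, beside 1.63% of the other genes of that level). It averaged 11.1 ± 1.23 FPKM in DK and 4.71 ± 0.45 FPKM in ripe BDK, against 4.83 ± 0.99 FPKM in DK and 11.6 ± 3.85 FPKM in ripe BDK for c56965_g3. The ratio of the cluster sum was 0.89, and how reads were divided within the cluster was not tested, so the level of c56965_g5 is uncertain.

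**Figure D5:**
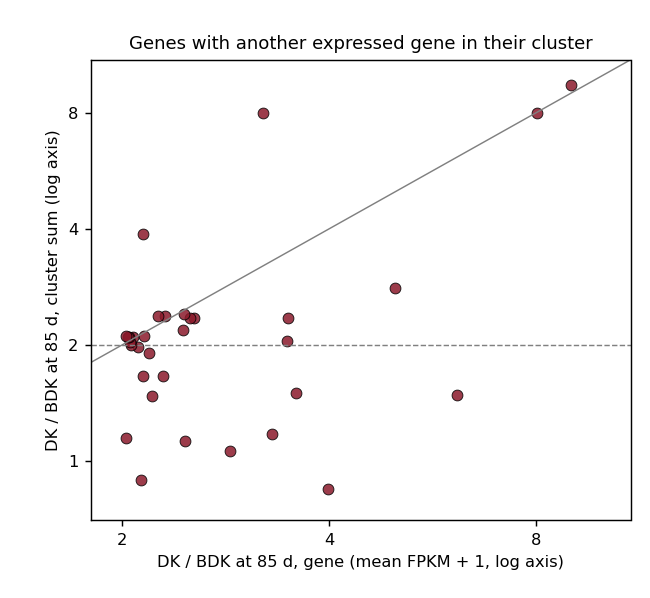
Ratio of DK to BDK at 85 days (means of FPKM + 1, log axes) of the 33 genes with another expressed gene in their cluster, for the gene itself (horizontal) and for the sum over its cluster (vertical). The solid line marks equal ratios and the dashed line the limit of 2; 19 genes stay at or above it as cluster sums and 2, c53866_g2 and c56965_g5, lie below 1.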

How the data were processed

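Each library has a table of gene IDs with FPKM made by the authors, per the file headers. How reads were assembled, mapped and counted is not given in the sources used here. The deposited FPKM was used for the choice of genes, levels, ratios and courses, with 1 added before ratios. For tests across all genes, FPKM was divided by trimmed-mean factors (30% of log ratios and 5% of levels trimmed at each end) of 0.898 to 1.11. A filter required 1 FPKM or more in 3 or more of the 12 libraries, and log2(FPKM / factor + 1) was fitted with limma 3.58.1 in R 4.3.3, with a mean-dependent prior variance and no covariates. Benjamini-Hochberg adjustment ran over the 23074 genes that passed. The procedure was tested on simulated data. Changes were planted only in the more abundant genes, so changes of low genes were not covered. The simulated noise was independent between libraries, so the division into library sets was not covered either. No pair of libraries had equal values in more than 11.9% of tested genes. Without counts, no counting interval can be given.

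The rule for the 81 genes and all lists were set with earlier results of these data known. Named by rule were the 2 genes with the largest ratio, DK level, 55-day level, and DK level among those at 0 in BDK. So were the 2 largest called rises and falls from 55 to 70 days with a mean of at least 10 FPKM and no overlap. The genes nearest each limit were too, and those with a cluster neighbour lower in DK that averaged at least 5 FPKM in ripe BDK. The others were named after their values were seen, to illustrate a course, a spread or a cluster. Alternatives were other scalings, filters, pseudocounts, limits, a replicate block, the library set as a term, the 2 compared groups alone and each library left out.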

Additional observations from a re-analysis of the deposited data

How the results depend on the processing

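The number of genes was 54 to 97 under other scalings, constants and limits and for cluster sums, except 31 with a 3-fold minimum. The list itself depended on the constant added before ratios. A constant of 5 gave 59 genes, of which 42 were among the 81, and a constant of 0.1 gave 86, of which 74 were. With BDK at 85 days replicate 3 alone, chosen after seeing the data, the number of genes was 124, of which 63 were among the 81. Leaving out 1 library gave 80 to 176 genes: 176 without DK replicate 2 and 153 without DK replicate 3, of which 68 and 72 were among the 81. Genes at 0 in all 9 BDK libraries numbered 2, and 4 were below 1 FPKM in all of them. Genes called higher at 70 than at 55 days ranged from 30 to 35 and those called lower from 15 to 19 with 1 library left out. A term for library set gave 30 and 12, and the counts were 28 and 14 with no filter, 27 and 17 with a pseudocount of 5, and 28 and 20 with the 2 compared groups alone. Within the first library set the counts were 18 and 11 (added after seeing the data, fewer samples). Calls for DK over BDK at 85 days numbered 38 with no filter, 37 with the set as a term and 39 to 66 with 1 library left out, the lowest without DK replicate 1. The cause was not tested. Held-out shares ran from 22.1% to 54.2%. BDK at 55 days was at least 2-fold above BDK at 85 days for 18 genes and below for 27, or 12 and 31 with trimmed-mean factors. Replicate numbers were not used to pair the libraries in the main model. Deviations of same-numbered libraries correlated at -0.15 to 0.17 and those of different-numbered ones at -0.213 to 0.25. These values cannot show whether same-numbered libraries share a source. With the replicate block, 33 genes were called higher and 17 lower at 70 days, and 59 for DK over BDK. Among the named genes, the call of c47647_g1 for this step was lost in 6 settings, and those of c39109_g1, c51160_g1 and c13743_g1 were gained in 7 in all. The unknown depth limits what can be said of genes near 0.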
